A study of Mus musculus with 6 samples.

Results

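Potassium, calcium and sodium channel genes were examined for AGO2 and miRNA contacts in the newborn mouse brain. The members were the 134 mouse RefSeq protein-coding genes whose symbols begin with Kcn, Cacna, Cacnb or Cacng, or read Scn, a number and a or b, out of 21468 coding genes that could be given a strand. By symbol they fell into 40 pore-forming voltage-gated potassium channel genes, 17 auxiliary potassium channel genes, 8 genes of potassium channels gated by calcium or sodium, 15 of inward rectifiers and 14 of leak channels. The calcium channel genes were 10 pore-forming, 4 alpha2delta, 4 beta and 8 gamma genes, and the sodium channel genes 10 pore-forming and 4 beta genes. The data are chimeric AGO2 eCLIP libraries from P0 whole brain of C57Bl/6J mice, with 1 AGO2 immunoprecipitate (IP) from WT and 2 from *Mov10* Deletion, which are called replicate 1 and replicate 2. Each IP had a size-matched input. In the *Mov10* Deletion mice a floxed *Mov10* allele was crossed with *Emx1*-Cre, which acts in cells of the *Emx1* lineage such as cortical excitatory neurons, and with a heterozygous *Mov10* mutation, so the other cells of the whole brain kept an allele. MOV10 is an RNA helicase that binds AGO2. Because there was a single WT library, no test was made between genotypes, and values are given library by library.

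Potassium channels repolarise neurons and set their resting potential, calcium channels couple depolarisation to transmitter release and gene expression, and sodium channels start the action potential. A pore-forming subunit makes the channel, while auxiliary subunits change its gating and its number at the membrane. miRNAs guide AGO2 to RNA through a short seed at their 5′ end, and miR-124, miR-9, miR-125b and let-7 are abundant in brain. In chimeric eCLIP a miRNA and the RNA it was paired with are ligated into a single read, which names the miRNA at that place.

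The miRNAs most often assigned to channel genes were, in order of the summed assignments, miR-124-3p, miR-466i-5p, miR-9-5p, miR-125b-5p, let-7c-5p, miR-466f-3p, let-7b-5p and let-7a-5p. The mature sequences of those with an entry in RefSeq, with the seed (nucleotides 2 to 8) in capitals, show which of them can pair alike. The last 3 are shown because their sites are described below.
miR-9-5p: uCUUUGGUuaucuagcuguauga
miR-125b-5p: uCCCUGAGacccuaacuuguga
let-7a-5p: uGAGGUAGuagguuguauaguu
let-7b-5p: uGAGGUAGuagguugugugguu
let-7c-5p: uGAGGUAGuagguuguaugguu
miR-26a-5p: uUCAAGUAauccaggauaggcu
miR-181a-5p: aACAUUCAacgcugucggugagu
miR-20a-5p: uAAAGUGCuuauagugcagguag
The 3 let-7 miRNAs share a seed and differ only outside it, so they were joined when places in a gene were counted.

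The sites where such a seed had its match were read from the channel gene's own strand. A seed match is the reverse complement of the seed, and is in capitals in the sequences below. Positions of the printed sequences are those of GRCm39, and positions of clusters are those of mm10. They were set beside each other by their distance from the RefSeq promoter sequence of the gene, in the 72 members whose promoter sequence and 3′ end allowed it, and no position was converted. The sequences shown are those with a match under a target site of the same seed in at least 2 libraries that lay in an exon, and the only intronic one of these that lay on an enriched AGO2 cluster in all 3 libraries.
*Cacnb4* 3′UTR, miR-26a-5p, GRCm39 chr2:52321245-52321271 (−): catacctgcaTACTTGAacttgtcttt
*Kcnq5* 3′UTR, miR-181, GRCm39 chr1:21469731-21469757 (−): gcaagaattgTGAATGTatcagggacc
*Kcnk10* 3′UTR, miR-17 family, GRCm39 chr12:98398284-98398310 (−): gcactcctttGCACTTTactcgatttt
*Scn8a* 3′UTR, let-7, GRCm39 chr15:100943344-100943370 (+): taatactgacCTACCTCacaggggtgt
*Kcnc1* 3′UTR, let-7, GRCm39 chr7:46078826-46078852 (+): aacccatagtCTACCTCtacccatgga
*Kcnc1* 3′UTR, miR-9-5p, GRCm39 chr7:46077545-46077571 (+): agcagaaactACCAAAGaaaaaaaaga
*Scn2b* 3′UTR, miR-125b-5p, GRCm39 chr9:45039030-45039056 (+): cccccacaagCTCAGGGagttagctgt
*Scn2b* 3′UTR, miR-125b-5p, GRCm39 chr9:45039091-45039117 (+): ctaagacagtCTCAGGGaccaatactt
*Cacna1d* coding sequence, miR-9-5p, GRCm39 chr14:29906099-29906125 (−): ggaacaattaACCAAAGaaacagaagg
*Kcnip4* intron, let-7, GRCm39 chr5:49646501-49646527 (−): tatacactatCTACCTCaacttgttca

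For the let-7, miR-9 and miR-125 seeds, matches were more frequent under clusters of their own miRNA than under clusters of the others. miR-124-3p, which had the most assignments, miR-466i-5p and miR-466f-3p had no mature sequence at hand. Their seed matches were therefore not examined. The let-7 match CTACCTC lay under 35 of 67 let-7 assignments (52.2%, exact 95% interval 39.7 to 64.6) and under 4 of 532 assignments of other miRNAs (0.752%, 0.205 to 1.91). The miR-9 match ACCAAAG lay under 14 of 36 miR-9-5p assignments (38.9%, 23.1 to 56.5) and under 4 of 563 others (0.710%, 0.194 to 1.81). The miR-125 match CTCAGGG lay under 10 of 41 assignments of miR-125a-5p or miR-125b-5p (24.4%, 12.4 to 40.3) and under 8 of 558 others (1.43%, 0.621 to 2.81). These counts pool the assignments of the 3 libraries. A place found in several libraries, or a cluster with several miRNAs, counts more than once. The intervals treat these as independent and cover counting error only. A missing match says only that these 7 letters are not in that window.

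The AGO2 cluster lists held 359172 clusters in WT and 616014 and 616005 in *Mov10* Deletion replicates 1 and 2. The lists of the *Mov10* Deletion replicates shared nearly all coordinates (14316 clusters in channel genes), so the positions of their clusters are not independent. Clusters with a deposited log2 IP over input no lower than 3, and −log10 p no lower than 3, are called enriched here. The total depth of the libraries is unknown, but the reads behind a cluster could be worked out from its ratio and p-value. With 1 input read, enrichment took 16 or more IP reads in WT, 9 in replicate 1 and 8 in replicate 2, so the same threshold asked for more reads in WT. Enriched clusters of channel genes had medians of 34.5, 14 and 11 IP reads. *Mov10* itself, at 11, 9 and 9 AGO2 clusters, had a single enriched cluster in WT (log2 4.0) and none in the *Mov10* Deletion libraries. The 5 neuron markers had 20 to 136 AGO2 clusters in WT and a target cluster in every library. Of them 1 was enriched in WT, 4 in replicate 1 and 3 in replicate 2 (background 12.6%, 29.3% and 23.0% of coding genes). The 3 markers of radial glia and astrocytes had 3 to 72 AGO2 clusters in WT, and all 3 had a target cluster there. None of these 3 was enriched in WT, and 2 were in each *Mov10* Deletion library. The 2 endothelial markers had 2 to 15 AGO2 clusters in WT, the 2 of the oligodendrocyte lineage 3 to 7, and the 2 microglia markers 2 to 4. None of these was enriched in WT. In replicate 1 enrichment was found in 1 endothelial, 2 oligodendrocyte lineage and no microglia markers, and in replicate 2 in 1 of each. Of the 2 blood markers *Hbb-bs* was enriched in all 3 libraries. These counts were not divided by gene length, whose median was 69.0 kb for the neuron and 22.6 kb for the microglia markers. A cluster can only be called where the gene is transcribed, and in a whole brain fewer expressing cells and less RNA per cell cannot be told apart.

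AGO2 clusters lay in 108 channel genes in WT and in 111 in each *Mov10* Deletion library, and the share of all coding genes with such a cluster was not counted. They numbered 8115, 14336 and 14335, or 0.481, 0.849 and 0.849 per kb of gene, against 0.333, 0.571 and 0.571 per kb over all coding genes. The 19 members with no AGO2 cluster in WT or replicate 1 included *Scn11a*, a channel of sensory neurons, *Kcnj1*, of the kidney tubule, *Cacna1f*, of photoreceptors, and *Kcne1*, of heart and inner ear. These genes are examples, and where the other members without a cluster are expressed was not examined. Of all clusters in channel genes, 1.55% (1.30 to 1.85) were enriched in WT, 4.46% (4.13 to 4.81) in replicate 1 and 2.45% (2.20 to 2.71) in replicate 2. The shares over coding genes were 2.15%, 5.19% and 3.09%. Channel genes thus held more clusters per kb, of which a smaller share was enriched, in each library. Enriched clusters per 100 kb came to 0.747, 3.79 and 2.08 in channel genes and to 0.716, 2.97 and 1.77 over coding genes.

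An enriched AGO2 cluster was found in 40 channel genes in WT (29.9%, 22.3 to 38.4, background 12.6% of coding genes), in 70 in replicate 1 (52.2%, 43.4 to 60.9, background 29.3%) and in 63 in replicate 2 (47.0%, 38.3 to 55.8, background 23.0%). Channel genes are long, with a median of 44.7 kb against 17.5 kb for coding genes and a range of 1.45 to 1136 kb. Within each length class the gap in percentage points was smaller. Of genes over 300 kb, 13 of 21 channel genes (61.9%) were enriched in WT against 55.8% of 554 coding genes, 21 of 21 against 88.8% in replicate 1 and 19 of 21 (90.5%) against 82.3% in replicate 2. Of genes of 100 to 300 kb, 10 of 22 (45.5%) were enriched in WT against 31.1%, 16 of 22 (72.7%) against 69.7% in replicate 1 and 17 of 22 (77.3%) against 58.9% in replicate 2. Of the 42 channel genes under 20 kb, 5 were enriched in WT (11.9% against 5.27%), 9 in replicate 1 (21.4% against 14.0%) and 8 in replicate 2 (19.0% against 9.82%). Across the 134 members, gene length went with the number of AGO2 clusters (Spearman's rho 0.77 in WT) and less closely with the number of enriched clusters (0.37 in WT, 0.64 in replicate 1 and 0.63 in replicate 2). These coefficients describe genes, which are not replicates, and longer genes offer more sequence to every library.

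**Figure D1:**
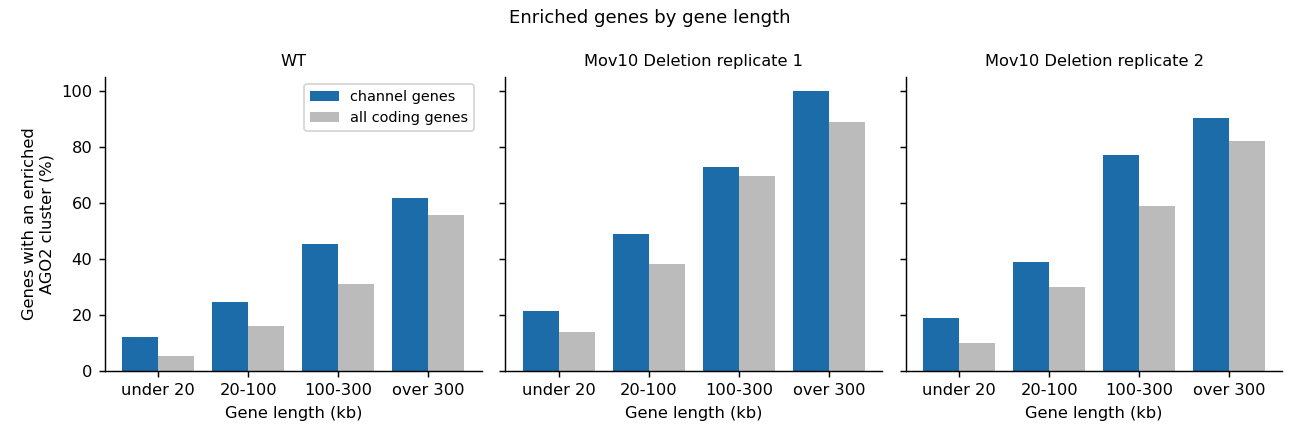
Percentage of genes with at least 1 enriched AGO2 cluster (y axis) by gene length in kb (x axis) for channel genes (blue) and all coding genes (grey), in 1 panel for each library. In WT the share of channel genes goes from 11.9% under 20 kb to 61.9% over 300 kb, and that of all coding genes from 5.27% to 55.8%.

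Enrichment was recurrent in 35 channel genes, which had an enriched cluster in all 3 libraries (26.1%, background 9.72%). It was confined to both *Mov10* Deletion libraries in 19 (14.2%, background 7.67%), and to WT in none (background 0.680%). The call by gene did not mean the same place in the gene. When enriched clusters that overlapped or touched were joined over the libraries, 683 regions resulted, of which 597 were found in a single library, 65 in 2 and 21, in 16 genes, in all 3. The log2 given for a region is the highest of each library in it, and need not come from the same cluster. WT shared 49 regions with replicate 1 (48.5% of the 101 WT regions and 11.2% of the 437 of replicate 1) and 31 with replicate 2 (30.7% of WT and 12.3% of the 252 of replicate 2). The *Mov10* Deletion replicates shared 48 (11.0% and 19.0%). Most regions of replicate 1 and of replicate 2 were thus enriched in no other library, while most of those of WT were enriched in another. Regions were not joined over all coding genes, so whether this sharing is particular to channel genes is unknown.

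Of the 21 regions, the strongest lay in *Kcnk10*, which encodes a mechanosensitive leak potassium channel. At chr12:98434596-98434883, 5.31 kb before the gene end, log2 IP over input was 6.36 in WT, 6.58 in replicate 1 and 6.76 in replicate 2. Behind these values stood 291 IP over 3 input reads in WT, at least 988 over 18 in replicate 1, where −log10 p was at its limit of 400, and 182 over 4 in replicate 2. The 3 libraries gave nearly the same log2, and GENCODE places the region in the 3′UTR. *Scn8a*, the main sodium channel of the mature axon initial segment and node, had the next strongest at chr15:100976334-100976524, with log2 5.86, 6.07 and 6.54 from 138 over 2, 77 over 2 and 39 over 1 reads. That place lies in an intron, 69.5 kb before the gene end. A further *Scn8a* region, chr15:100940624-100940810, gave log2 4.54, 5.21 and 4.37.

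**Figure D2:**
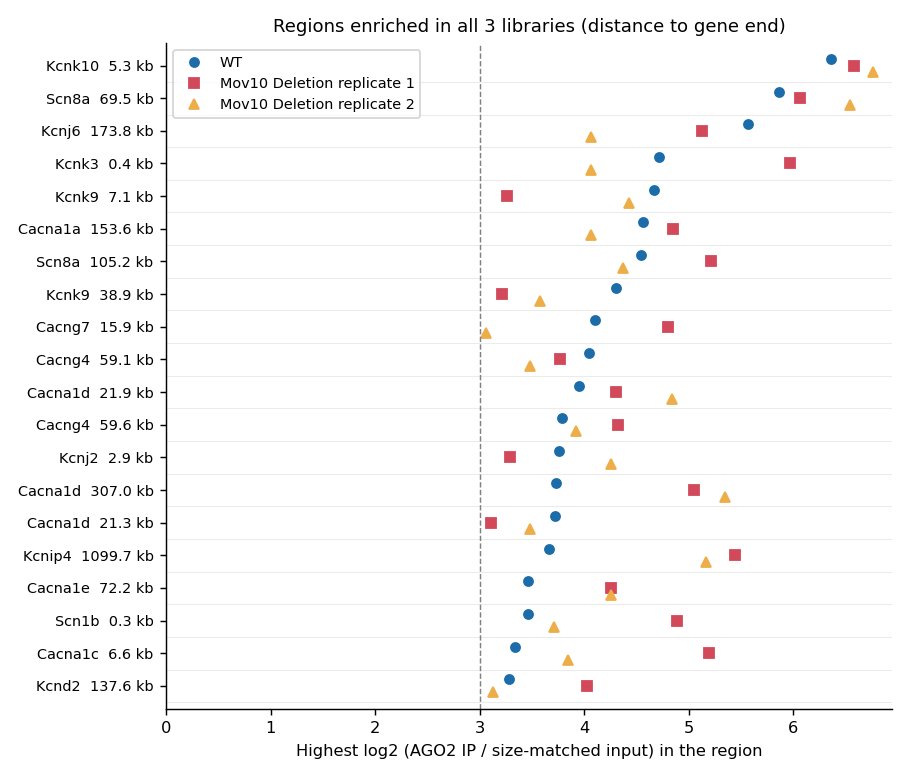
Highest log2 of AGO2 IP over size-matched input (x axis) in 20 of the 21 regions enriched in all 3 libraries, with WT as circles, *Mov10* Deletion replicate 1 as squares and replicate 2 as triangles. The gene and the distance to its end are on the y axis, and the dashed line is the threshold of 3. *Kcnk10* (6.36 to 6.76) and *Scn8a* (5.86 to 6.54) stand at the top, and the WT points of the other regions lie between 3.28 and 5.56.

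Calcium channel genes held 9 of those 21 regions. The gene of an L-type channel subunit, *Cacna1d*, had 3. At chr14:30346809-30347038 the highest log2 was 3.73, 5.05 and 5.34. The best cluster of replicate 1 there, chr14:30346809-30346905, lay in coding sequence, and replicate 2 had 2.48 at that cluster. At chr14:30061608-30061988 the highest log2 was 3.95, 4.30 and 4.84. Its relative *Cacna1c* had 1, in the 3′UTR at chr6:118593774-118593894, with a highest log2 of 3.34, 5.19 and 3.84. At the best cluster of replicate 1, chr6:118593847-118593894, replicate 2 had 2.99. The P/Q-type gene *Cacna1a* and the R-type gene *Cacna1e* had 1 each, with log2 4.56, 4.84 and 4.06, and 3.46, 4.26 and 4.25. *Cacng4*, which encodes an auxiliary subunit of AMPA receptors named among the calcium channel gamma subunits, had 2, and the gamma gene *Cacng7* had 1. In *Cacng4* the stretch chr11:107791113-107791886 lay 59.1 kb from the end of a gene of 62.4 kb, and held up to 449 IP reads over 23 in WT, 102 over 13 in replicate 1 and 84 over 18 in replicate 2.

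Enrichment was dense in *Cacng4* and *Kcnk9*. *Cacng4* had 18, 38 and 30 enriched clusters of 51, 112 and 112 AGO2 clusters. *Kcnk9*, an imprinted gene of an acid-sensitive leak potassium channel, had 14 of 28 in WT, 10 of 50 in replicate 1 and 7 of 50 in replicate 2, and so fewer in both *Mov10* Deletion libraries. Its best WT cluster (chr15:72541348-72541457, log2 5.48, 53 IP reads over 1) overlapped no AGO2 cluster in either *Mov10* Deletion library. *Kcnj6*, the gene of a G-protein-gated inward rectifier of neurons, had 11, 27 and 18, with log2 5.56, 5.12 and 4.06 at chr16:94918699-94918875. In *Kcnk2*, a relative of *Kcnk10*, the best WT cluster lay in the 3′UTR at chr1:189209216-189209369 with log2 5.22, 4.71 and 3.25, and in replicate 2 its −log10 p of 2.85 missed the threshold.

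Some genes enriched in all 3 libraries were so at different places. *Kcnq1*, an imprinted potassium channel gene of heart and epithelia, had only 4, 11 and 11 AGO2 clusters. Its best WT cluster, chr7:143344227-143344239, had log2 5.50 from 107 IP reads over 2, and at that place log2 was −2.01 in replicate 1 and 1.54 in replicate 2. The WT cluster was 13 nt wide. High values could also be those of a single genotype or replicate. In *Cacna1c* at chr6:118953294-118953316, in an intron, log2 was 4.80 in replicate 1 (80 reads over 5) and 6.82 in replicate 2 (at least 665 over 14), and WT had no cluster. That stretch was split into 3 touching clusters of 5 to 10 nt with the same values in each *Mov10* Deletion library. In *Cacna1d*, the 3′UTR cluster chr14:30040131-30040136 had log2 6.98 in replicate 2 (53 reads over 1) and 3.80 in replicate 1 (8 over 1), and WT had none. Splitting of this kind was common in the *Mov10* Deletion lists, where 342 of 639 and 175 of 351 enriched clusters touched another, against 38 of 126 in WT. Counted once each, the enriched stretches numbered 103 in WT, 444 in replicate 1 and 254 in replicate 2.

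Of the 19 genes enriched in each *Mov10* Deletion library but not WT, 3 had an enriched region in common between the replicates, namely *Cacna2d3*, *Cacna2d1* and *Kcnc2*. *Cacna2d3*, a calcium channel alpha2delta subunit gene, had log2 5.32 and 4.95 at chr14:29112471-29112584 from 23 over 1 and 13 over 1 reads, and WT had no cluster there. *Cacna2d1*, which encodes the subunit bound by gabapentin, had log2 3.01 and 3.13 at chr5:16371473-16371642, in adjoining clusters, and its highest WT value past the p threshold was 2.76. The fast-spiking potassium channel gene *Kcnc2* had log2 4.38 and 4.25 at chr10:112272661-112272794, again in adjoining clusters, from 36 over 3 and 8 over 1 reads. In that region WT had 2.49 and all 3 libraries had a miR-124-3p site. In the sodium-activated potassium channel gene *Kcnt1*, the auxiliary genes *Kcnab2* and *Kcnmb2*, and the large-conductance calcium-activated channel gene *Kcnma1*, the best places differed between the replicates. Their enriched clusters in replicates 1 and 2 numbered 5 and 2, 5 and 2, 9 and 1, and 46 and 18, against none in WT. The best place of *Kcnma1* in replicate 1 rested on 17 IP reads over 1 and had 1 over 1 in replicate 2, while the best place of replicate 2 rested on 10 over 1 and had 1 over 1 in replicate 1. Among WT clusters past the p threshold, the highest log2 was 2.99 in *Kcnma1* and 2.98 in *Kcnq5*, and *Kcnma1* also had a cluster at 3.46 that missed the p threshold. When every library was held to the 16 IP reads that WT needs, 3 genes were called in each *Mov10* Deletion library but not WT (*Cacna2d2*, *Kcnh7* and *Kcnma1*) and 6 in WT only, among them *Kcnq1* and *Scn2a*. Without *Mov10* Deletion replicate 1 the counts were 27 and 4, and without replicate 2 they were 31 and 1. The shares of all coding genes under these changed settings were not counted, so whether the shifts are particular to channel genes is unknown.

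By family, enriched clusters per 100 kb were highest in the gamma genes, at 6.30 in WT, 18.7 in replicate 1 and 9.94 in replicate 2, with 4 of 8 members enriched in all 3 libraries (background 9.72% of coding genes). *Cacng4* alone held 18 of the 26 gamma clusters in WT, 38 of 77 in replicate 1 and 30 of 41 in replicate 2. The rank of this family thus rests largely on a single gene. The families differ in gene length, from a median of 13.9 kb in the sodium channel beta genes, 38.3 kb in the gamma genes, 37.1 kb in the leak channel genes and 32.3 kb in the pore-forming voltage-gated potassium channel genes to 135 kb in the pore-forming calcium channel genes and 285 kb in the alpha2delta genes, and the part of length in these counts was not tested. The sodium channel beta genes followed in replicate 1 with 14.8, and had 3.30 in WT and 8.25 in replicate 2. Leak potassium channel genes had 3.65, 3.79 and 2.81, with 5 of 14 members enriched in all 3 libraries and 8 in none, and *Kcnk9* held 14 of their 26 enriched clusters in WT. Pore-forming calcium channel genes had 0.638, 5.49 and 3.62, with 5 of 10 members in all 3. The 40 pore-forming voltage-gated potassium channel genes had 0.456, 2.65 and 1.33, with 10 in all 3 and 13 in none. Auxiliary potassium channel genes had 0.196, 2.39 and 1.25 (2 of 17 in all 3). The alpha2delta genes had none in WT, 42 in replicate 1 and 27 in replicate 2 (2.79 and 1.80 per 100 kb, in 3 of 4 genes each). Pore-forming sodium channel genes had 0.753, 2.09 and 1.17, with *Scn8a* holding 8 of the 9 enriched clusters in WT. Inward rectifier genes had 1.84, 4.20 and 2.89, with 10 of 15 members in none, and *Kcnj6* held 11 of their 14 enriched clusters in WT. Genes of channels gated by calcium or sodium had 0.164, 4.64 and 1.69, and the calcium channel beta genes 0.596, 3.58 and 1.49. *Cacnb4* had 2, 12 and 6 enriched clusters, and the sodium channel beta gene *Scn3b* 0, 1 and 2.

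Target clusters, which come from chimeric reads and carry a miRNA, gave 287 assignments in channel genes in WT, 458 in replicate 1 and 199 in replicate 2. Assignments count a cluster once for each of its miRNAs, and the distinct clusters numbered 251, 436 and 190. They fell in 56 channel genes in WT (41.8%, 33.3 to 50.6, background 28.5%), 67 in replicate 1 (50%, 41.2 to 58.8, background 34.1%) and 50 in replicate 2 (37.3%, 29.1 to 46.1, background 24.0%), and 41 genes had them in all 3 libraries (30.6%, background 17.1%) and 61 in none. Per 100 kb there were 1.70, 2.71 and 1.18 assignments in channel genes and 2.00, 2.79 and 1.22 over coding genes. In genes over 300 kb, 18, 20 and 18 of 21 channel genes had a target cluster (85.7%, 95.2% and 85.7%, against 77.3%, 88.8% and 80.5% of coding genes), and in those of 20 to 100 kb 34.7%, 42.9% and 32.7% did against 37.8%, 45.3% and 31.2%.

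The 15 genes with most assignments held 174, 265 and 123 of them (60.6%, 57.9% and 61.8%). *Kcnip4*, the longest member and the gene of a calcium-binding partner of A-type potassium channels, had 20 assignments in WT, 42 in replicate 1 and 19 in replicate 2. *Kcnd2*, the A-type channel of dendrites with which that partner assembles, had 20, 33 and 17. Among calcium channels, *Cacna1c* had 20, 26 and 13, *Cacna1e* 13, 15 and 8, *Cacna1d* 8, 11 and 5, the N-type gene *Cacna1b* 7, 9 and 7, and *Cacna2d1* 8, 12 and 3. Among potassium channels, *Kcnma1* had 14, 20 and 5, and the delayed-rectifier gene *Kcnb2* 16, 11 and 10. The M-current genes *Kcnq5* and *Kcnq3* had 9, 25 and 5, and 6, 12 and 7. *Kcnk10* had 3, 14 and 7, and *Scn8a* 7, 15 and 7. In 10 of the 15 genes the order was replicate 1, then WT, then replicate 2 or a tie for the last place, the order of the libraries' totals.

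**Figure D3:**
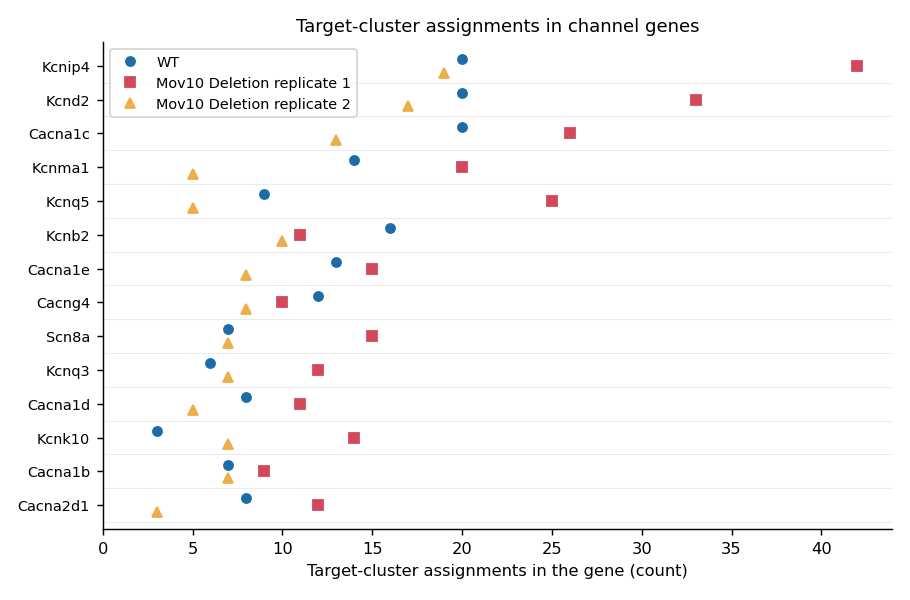
Number of target-cluster assignments (x axis) in 14 of the 15 channel genes with most of them (y axis), with WT as circles, *Mov10* Deletion replicate 1 as squares and replicate 2 as triangles. *Kcnip4* (20, 42 and 19) and *Kcnd2* (20, 33 and 17) are at the top, and replicate 1 is highest in most genes.

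Longer genes had more assignments, with Spearman's rho between gene length and assignments at 0.57 in WT, 0.67 in replicate 1 and 0.60 in replicate 2 over the 134 members. Per 100 kb and summed over the libraries, short genes were among the highest, and so was the longer *Cacng4*. *Scn2b*, a sodium channel beta subunit gene, had 57.4, *Kcns2* 49.6 from 3 assignments, *Cacng4* 48.1 and the axonal potassium channel gene *Kcna2* 33.2. *Kcnip4* had 81 assignments over 1136 kb. *Cacng4* is the gene in which many assignments, density and AGO2 enrichment came together, with 12, 10 and 8 assignments over 62.4 kb. They did not all meet at the same place. In the last 1000 nt lay 6, 4 and 5 of these assignments, and no AGO2 cluster was enriched there in any library. A let-7 cluster there counts once for each of its miRNAs.

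miR-124-3p took 136 of the assignments in WT (47.4%, 41.5 to 53.3), 169 in replicate 1 (36.9%, 32.5 to 41.5) and 80 in replicate 2 (40.2%, 33.3 to 47.4). Over coding genes its shares were 43.2%, 35.3% and 38.0%, inside the interval of the channel genes in each library. It reached 58 channel genes in all. miR-9-5p had 21, 26 and 7 (7.32%, 5.68% and 3.52%, against 9.19%, 6.71% and 6.83% of coding genes). The let-7 family of 9 miRNAs had 32, 55 and 14 (11.1%, 12.0% and 7.04%, against 9.41%, 9.59% and 8.32%), in 31 genes. miR-125a-5p and miR-125b-5p had 12, 29 and 17 (4.18%, 6.33% and 8.54%, against 6.44%, 6.16% and 5.89%). Only miR-466i-5p in replicate 1 had an interval clear of the coding-gene share among the 8 named miRNAs, with 39 assignments (8.52%, 6.13 to 11.5, against 5.52%). In WT it had 11 (3.83%, 1.93 to 6.75, against 4.11%) and in replicate 2 12 (6.03%, 3.15 to 10.3, against 5.90%). The intervals were not adjusted for the number of miRNAs and libraries looked at. Altogether 109 different miRNAs were assigned to channel genes, 52 in WT, 90 in replicate 1 and 53 in replicate 2.

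**Figure D4:**
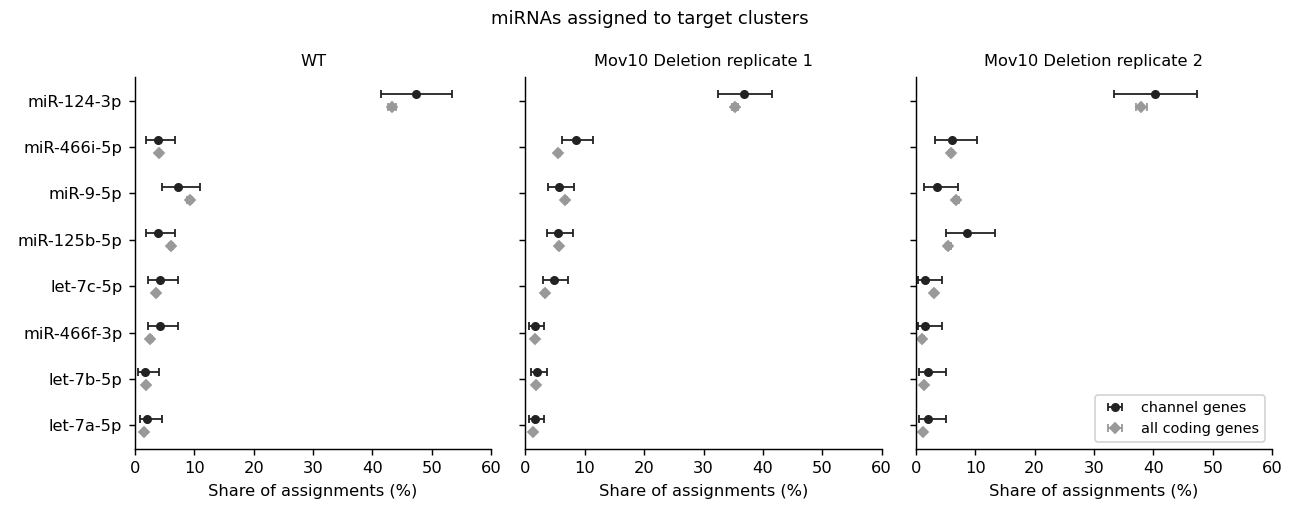
Share of target-cluster assignments in percent (x axis) for the 8 miRNAs with most assignments in channel genes (y axis), in 1 panel for each library. Black circles are channel genes and grey diamonds all coding genes, with exact 95% intervals. miR-124-3p holds 47.4%, 36.9% and 40.2% in channel genes, close to 43.2%, 35.3% and 38.0% over coding genes.

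Overlapping target clusters of the same seed in the same gene were joined into 755 sites. Of these, 648 were found in a single library, 70 in 2 and 37, in 25 genes, in all 3. WT shared 84 sites with replicate 1 (31.8% of the 264 WT sites and 19.0% of the 441 of replicate 1) and 52 with replicate 2 (19.7% of WT and 26.8% of the 194 of replicate 2). The *Mov10* Deletion replicates shared 45 (10.2% and 23.2%). Sites were not joined over all coding genes, so whether this sharing is particular to channel genes is unknown. miR-124-3p accounted for 30 of the 37 sites in all 3 libraries and for 284 of the 755. The deposited score of the 37 sites, whose meaning is not described in the sources used here, had a median of 11.4 in WT, 5.82 in replicate 1 and 5.0 in replicate 2, against 4.0, 4.0 and 3.98 over all sites of each library. It was highest in WT at 31 of the 37 sites and lowest in WT at 2, and whether the scale is the same in each library is unknown.

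The site with the highest scores over the libraries was the miR-124-3p site of *Kcnk10* at chr12:98434656-98434791, with 113 in WT, 110 in replicate 1 and 42.6 in replicate 2. It lay under the strongest AGO2 region. The intronic miR-124-3p site of *Scn8a* at chr15:100976335-100976505, under its strongest AGO2 region, had 115, 22.3 and 22.3. At *Scn8a* the *Mov10* Deletion libraries were alike and lower than WT, while at *Kcnk10* replicate 1 was close to WT. In both *Mov10* Deletion libraries but not WT, a miR-9-5p site of *Kcnk10* (scores 5.27 and 5.50) lay in the same AGO2 region. *Cacna1d* had a miR-124-3p site in coding sequence at chr14:30346823-30346962 with scores of 42.0, 9.91 and 3.84. *Kcnip4* had intronic miR-124-3p sites at chr5:49088078-49088180 (30.4, 14.6 and 14.0) and chr5:48937033-48937161 (23.3, 16.7 and 7.90). *Kcnma1* had an intronic one at chr14:23404959-23405063 (29.3, 8.18 and 9.0). *Scn3b* had a miR-124-3p site 1.61 kb from its end with scores of 5.87, 4.85 and 4.92. Replicate 1 had the highest score at *Kcna1*, a channel of axons, with 12.0 against 3.92 in WT and 3.97 in replicate 2.

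**Figure D5:**
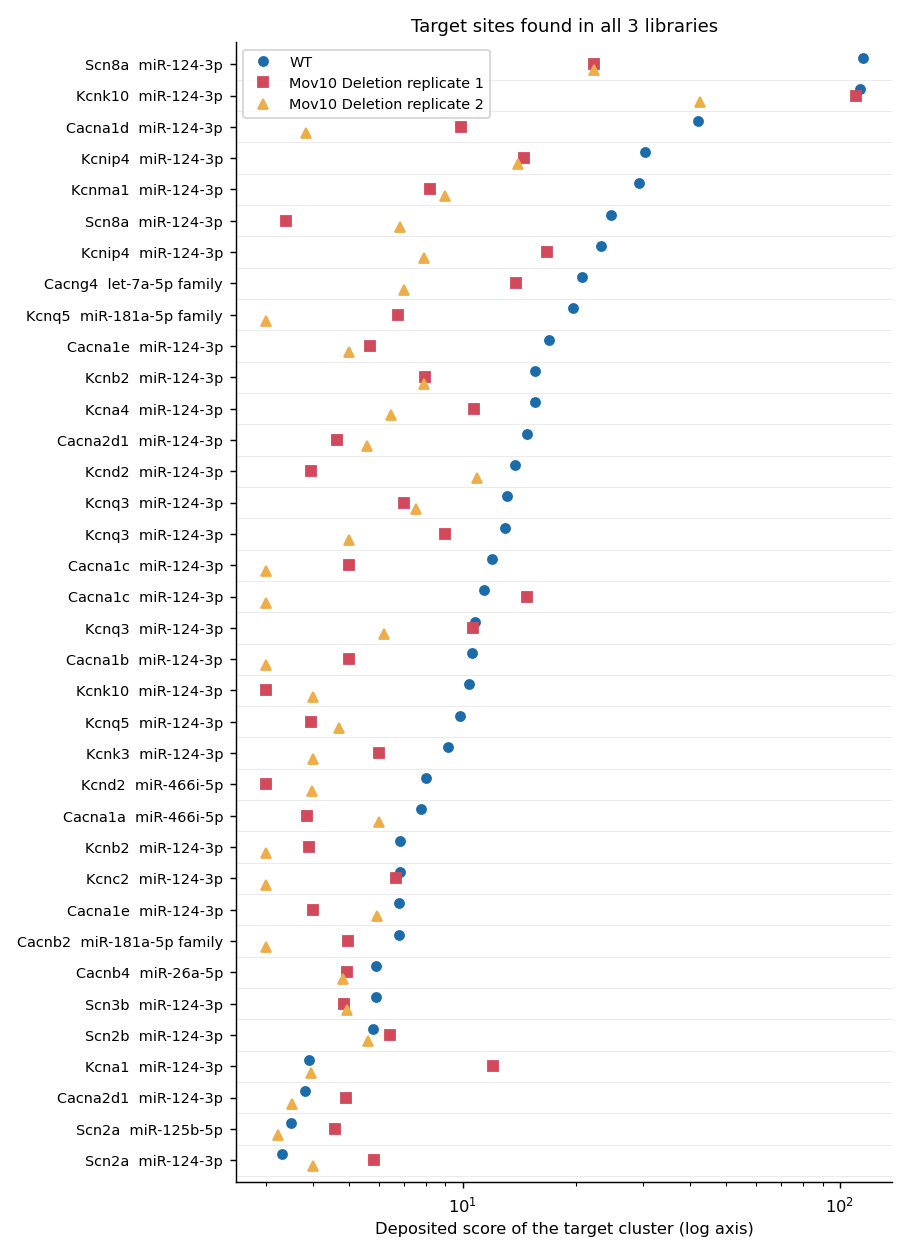
Deposited score of the target cluster on a log axis (x axis) at 36 of the 37 sites found in all 3 libraries, labelled by gene and miRNA (y axis), with WT as circles, *Mov10* Deletion replicate 1 as squares and replicate 2 as triangles. WT is highest at most sites, and only *Scn8a* and *Kcnk10* have a score above 100 in any library.

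The other 7 sites in all 3 libraries carried other miRNAs. *Cacng4* had a let-7 site at chr11:107733202-107733305, 0.896 kb from the gene end, with scores of 20.7, 13.9 and 7.0 and assignments to let-7a-5p, let-7b-5p, let-7c-5p, let-7d-5p and let-7e-5p. *Kcnq5* had a miR-181 site in its 3′UTR at chr1:21399478-21399570 (19.6, 6.72 and 3.0), with the match to the seed of miR-181a-5p shown above, and log2 IP over input there was 2.98, 5.61 and 3.25. That site was enriched in replicate 1 alone, since WT was below the log2 threshold and the value of replicate 2 rested on 4 IP reads over 1, with a −log10 p of 1.54. *Cacnb2*, a beta subunit gene, had another miR-181 site at chr2:14987166-14987266 (6.77, 4.96 and 3.0). *Cacnb4*, a further beta subunit gene, had the miR-26a-5p site of the printed sequence at chr2:52431180-52431281 with scores of 5.88, 4.94 and 4.82 and log2 of 2.34, 4.74 and 3.06. *Scn2a* had a miR-125b-5p site in coding sequence (3.50, 4.60 and 3.23) without the 7-letter match. The remaining 2 were miR-466i-5p sites far inside *Kcnd2* (7.98, 3.0 and 3.98) and *Cacna1a* (7.76, 3.86 and 6.0), the latter on an enriched cluster in each library.

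Among sites of 2 libraries, several of the printed sequences lay under enriched AGO2 clusters. The let-7 site of *Kcnip4* at chr5:49489108-49489204 was called in WT and *Mov10* Deletion replicate 1 (scores 7.95 and 8.99), and log2 IP over input there was 3.66, 5.44 and 5.16, enriched in each library. The let-7 site in the *Scn8a* 3′UTR at chr15:101045445-101045521 had scores of 3.61 and 4.12 in the same libraries and log2 of 4.28, 4.55 and 4.06, and the cluster of replicate 2 missed the p threshold. The miR-17 family site of *Kcnk10* at chr12:98431965-98432074 was called in the *Mov10* Deletion libraries only (12.0 and 6.0), and log2 there was 3.76 in WT, 4.12 in replicate 1 and 2.58 in replicate 2. The miR-125b-5p cluster of *Scn2b*, chr9:45127728-45127840, which spans both printed matches, was called in WT and replicate 2 (7.85 and 4.14) with log2 4.08, 1.15 and 3.42. The *Kcnc1* 3′UTR carried the miR-9-5p site in WT and replicate 2 and the let-7 site in WT and replicate 1, and neither lay on an enriched cluster in any library.

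Target sites and AGO2 enrichment met at a small part of the sites. In WT 32 of 264 sites overlapped an enriched AGO2 cluster (12.1%, 8.44 to 16.7), in replicate 1 38 of 441 (8.62%, 6.17 to 11.6) and in replicate 2 15 of 194 (7.73%, 4.39 to 12.4). Any AGO2 cluster was overlapped by 186, 206 and 107 sites. Of the 37 sites in all 3 libraries, 11, 16 and 11 lay on an enriched cluster, and 7 did so in every library. The same overlap was not counted over all coding genes.

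Most target clusters lay outside the last 1000 nt of their gene. In that window were 36 of 287 assignments in WT (12.5%, 8.94 to 16.9), 33 of 458 in replicate 1 (7.21%, 5.01 to 9.97) and 17 of 199 in replicate 2 (8.54%, 5.06 to 13.3). Over coding genes the shares were 19.0%, 13.9% and 14.9%, above the interval of the channel genes in each library. The channel genes are the longer ones, and the part of length in this difference was not tested. Of the 37 sites in all 3 libraries, 5 were in the last 1000 nt, 13 in the last 6000 nt and 23 over 50 kb from the end. *Cacng4* had 6 of 12, 4 of 10 and 5 of 8 of its assignments in the last 1000 nt.

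In the 72 genes that could be placed on GENCODE transcripts, introns held 109 of 173 assignments in WT (63.0%, 55.3 to 70.2), 237 of 307 in replicate 1 (77.2%, 72.1 to 81.8) and 90 of 119 in replicate 2 (75.6%, 66.9 to 83.0). The 3′UTR held 48 (27.7%, 21.2 to 35.1), 51 (16.6%, 12.6 to 21.3) and 20 (16.8%, 10.6 to 24.8), and coding sequence 15, 18 and 9. The *Mov10* Deletion libraries lay together, with a lower 3′UTR share than WT, and the intervals of both overlapped that of WT, that of replicate 1 only at its edge. Among enriched AGO2 clusters WT was again highest, with 19 of 56 in the 3′UTR (33.9%, 21.8 to 47.8), against 49 of 371 in replicate 1 (13.2%, 9.93 to 17.1) and 29 of 201 in replicate 2 (14.4%, 9.88 to 20.1). Here the WT interval lay above both others. Touching clusters, which were more common in the *Mov10* Deletion lists, were counted singly, and these intervals treat them as independent. Such shares were not counted over all coding genes. For miR-124-3p alone the 3′UTR held 21 of 82 assignments in WT (25.6%, 16.6 to 36.4), 18 of 113 in replicate 1 (15.9%, 9.72 to 24.0) and 11 of 49 in replicate 2 (22.4%, 11.8 to 36.6), and all 3 intervals overlapped. WT is a single library, so a difference between genotypes and one between libraries cannot be told apart.

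Genes that work with these channels, from a list of 29 with the pacemaker and sodium leak channels, ankyrins, fibroblast growth factor homologues and intracellular calcium release channels, were covered as well. An enriched AGO2 cluster was found in 12 of them in WT and in 24 in each *Mov10* Deletion library, with 12 in all 3, against 12.6%, 29.3%, 23.0% and 9.72% of coding genes. A target cluster was found in 23, 25 and 17, against 28.5%, 34.1% and 24.0%. These partner genes are long, with a median of 333 kb and 15 of 29 over 300 kb, a length at which 55.8%, 88.8% and 82.3% of coding genes had an enriched cluster, and the part of length in their counts was not tested. *Ank2* and *Ank3*, which anchor sodium and potassium channels in axons, had 39, 72 and 27, and 34, 65 and 19 assignments, and *Dpp6*, an A-type channel partner, had 17, 36 and 12. The pacemaker channel genes *Hcn3* and *Hcn4* were enriched in the *Mov10* Deletion libraries and not in WT, and *Hcn2* in all 3.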

How the data were processed

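AGO2 was immunoprecipitated from P0 whole brain of 1 WT and 2 *Mov10* Deletion mice, and chimeric eCLIP reads were processed by the authors with UMI-tools 1.1.1, cutadapt 3.2, STAR 2.7.7a and Bowtie 1.2.3, as named in the submitters' processing notes, on mm10. In the AGO2 cluster lists the authors deposited a −log10 p (at most 400) and a log2 IP over input for each cluster, and in the target cluster lists a miRNA and a score of at least 3 whose meaning is not given in the sources used here. The inputs entered only through these values. No read counts were used, and depth is unknown. From the ratio and p of a cluster the IP and input reads were inferred, a step tested on simulated data, and at the limit of 400 they are minima.

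Clusters were assigned by strand to RefSeq gene bodies of GRCm38.p6, with python 3.11.15, pandas 2.3.3 and scipy 1.17.1. Strands came from the RefSeq promoter table for 99 members and from the GENCODE symbol for 35. The 95% intervals of shares are exact (Clopper-Pearson) and do not reach beyond counting error. No test was made between genotypes, since WT was a single library. Members and lists were chosen with earlier results of these data known. Named genes were the 15 with most assignments, the 8 with the highest WT log2 among those enriched in all 3 libraries, up to 6 enriched in each *Mov10* Deletion library but not WT, up to 6 in WT only, and, for families without one, the member with most WT AGO2 clusters (*Cacnb4* and *Scn3b*). The 8 miRNAs with most assignments were named. Other genes named with a site, density or shared region were chosen after their values were seen. Alternatives changed the thresholds, read minimum, score, gene-end window and libraries. Mature sequences are from RefSeq. Results for some genes are not reported here.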

Additional observations from a re-analysis of the deposited data

How the results depend on the processing

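No paired analysis was possible because the genotypes shared a single replicate number and no test was made between them. Of 82 recomputed values, 49 stayed within a margin of 1.5 times the value reported for a count, or inside the 95% interval of the value reported for a share, and 33 moved beyond it. At a log2 of at least 4 the enriched clusters of channel genes came to 50 in WT, and to 260 and 194 in *Mov10* Deletion replicates 1 and 2, with 22 genes in WT and 2 genes enriched in WT only. At a log2 of at least 2 WT had 222 clusters. At a −log10 p of at least 5 the clusters were 82, 245 and 134, with 22 genes in WT and 1 in WT only. With at least 16 inferred IP reads replicate 1 had 235 clusters, and replicate 2 had 67 in 26 genes. The genes in both *Mov10* Deletion libraries but not WT then numbered 3, and those in WT only 6. Leaving out a *Mov10* Deletion replicate gave 27 to 31 and 1 to 4 such genes. For none of these gene counts was the share of all coding genes under the same setting counted. A target score of at least 5 left 111, 149 and 54 assignments, of which miR-124-3p took 58.6%, 45.0% and 53.7%. Target clusters with a single miRNA gave it 55.5% in WT. The last 3000 nt held 25.8%, 14.8% and 15.6% of assignments, the last 5000 nt 30.7%, 17.7% and 17.1%, and at a score of at least 5 the last 1000 nt held 14.8% in replicate 2. Thresholds on the genotype calls and the joining of touching clusters were chosen after seeing the data. For changes other than those the stricter limits or wider windows make by construction, the cause was not tested. The same log2 and p ask for more IP reads in WT than in the *Mov10* Deletion libraries, which limits every count compared between them.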
